A study of Caenorhabditis elegans with 14 samples.

Results

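Sequences added to 26S ribosomal RNA (rRNA) at its 3′ end were compared between 2 libraries from embryos of the nematode Caenorhabditis elegans. The first library came from eri-1(mg366);susi-1(ust1), called the double mutant below, and its control from eri-1(mg366), called eri-1, and both strains carry a 3xflag::gfp::nrde-3 transgene, per their genotype labels. They are 2 of the 5 libraries of 26S rRNA ends and 2 of the 14 libraries of the series, taken by their labels. Both were kept at 20 °C without cold or ultraviolet treatment, and each group had 1 library, so no difference below has a replicate check or a p-value. The control already lacks normal eri-1, so the pair addresses what susi-1(ust1) adds in that background. The labels do not say what kind of lesion ust1 is.

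SUSI-1, named disl-2 in the annotation (III:5443167-5446506, plus strand, build WBcel235), is the worm relative of DIS3L2, an exonuclease that degrades RNA from its 3′ end and prefers RNA carrying added uridines. Terminal uridylyltransferases add such uridines without a template, and in this pathway uridylated or faulty rRNA is a starting point for antisense ribosomal siRNAs (risiRNAs), which the Argonaute NRDE-3 carries to the nucleus. ERI-1 (IV:415635-419958, minus strand) is an exonuclease with roles in siRNA production and in trimming rRNA ends. The 26S rRNA is the large rRNA of the worm's big ribosomal subunit, and the annotation places a copy, rrn-3.1, at I:15064838-15068346 on the plus strand. The comparison asks whether 26S rRNA with oligouridine tails accumulates when susi-1 is mutated.

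Each table lists the sequence found beyond the authors' 26S rRNA end with its reads, and a count of reads that match the end exactly. Every deposited count in the pair is a multiple of 4 (176 of 176 values in the double mutant and 183 of 183 in eri-1), so all counts were divided by 4. No label or header states the reason for these multiples, and the width of every interval and the calls rest on the division, while shares and ratios do not. This left 3802604 reads in the double mutant and 3897762 in eri-1, called listed ends below. Levels are counts per 1000000 listed ends (CPM). For a fold against a count of 0, a floor of 3 reads was set, which is 0.789 CPM in the double mutant and 0.770 in eri-1. The exact 95% interval of a count of 0 reaches further, to 0.970 CPM in the double mutant and 0.946 in eri-1. Ratios are shares in the double mutant over shares in eri-1, with 95% intervals that are exact for rare counts. For shares as large as that of a single U they are too wide. The intervals cover counting error alone, leaving out PCR copies and differences between cultures. The genotypes cannot be checked from reads of a single rRNA end.

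The tails that carry the comparison are printed 5′ to 3′ as RNA, with every U in capitals and other bases in lower case. The first set shows the added uridines growing base by base, and the second shows uridines followed by adenines.

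Pair of uridines: UU

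Run of 3 uridines: UUU

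Run of 4 uridines: UUUU

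Run of 5 uridines: UUUUU

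Run of 6 uridines: UUUUUU

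Single uridine, then adenine: Ua

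Pair of uridines, then adenine: UUa

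Pair of uridines, then 3 adenines: UUaaa

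The last set holds tails with G or C whose reads were concentrated in either library. The word alone refers to the pair, since UUgc also had 2 reads in susi-1(ust1) and 6 in N2.

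Mostly in the double mutant: UUUgc

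Found in the double mutant alone: UUgc

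Found in eri-1 alone: UUca

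Mostly in eri-1: UgUg

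Tails made only of 3 or more uridines were more frequent in the double mutant, at 2.00 times their share in eri-1, while the pair of uridines was less frequent, at 0.791 times that share. Tails of uridines followed by adenines were also more frequent, at 1.55 times. Tails of 2 or more bases as a whole had nearly equal shares in the pair of libraries. Ends with nothing added were scarcer in the double mutant, at 0.106 times their share in eri-1.

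Ends matching 26S rRNA exactly numbered 6162 reads, 0.162% of listed ends, in the double mutant, against 59662 reads, 1.53%, in eri-1. The ratio was 0.106 (0.103 to 0.109). Nearly all other ends carried a single added base, which made up 99.9% of tails in the double mutant and 99.9% in eri-1. A single U stood on 78.2% of listed ends in the double mutant and 80.1% in eri-1, a ratio of 0.976 (0.975 to 0.978). A single C stood on 19.6% in the double mutant and 15.6% in eri-1, a ratio of 1.25 (1.25 to 1.26).

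The remaining single bases were both scarcer in the double mutant. A single G was found on 1.76% of ends in the double mutant and 2.23% in eri-1, a ratio of 0.788 (0.780 to 0.796). A single A was found on 0.180% in the double mutant and 0.397% in eri-1, a ratio of 0.452 (0.439 to 0.465). Whether a first base is encoded in the rRNA gene or added after transcription was not tested, since no base of the genome was used here, so longer tails are described apart. The question touches them too, since most of them also start with U. If the first U is encoded, UU holds 1 added U, every tail that starts with U is 1 base shorter than counted here, and an end with nothing added is a trimmed one. Tails that start with another base, such as a single C, would then lack the encoded U.

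**Figure D1:**
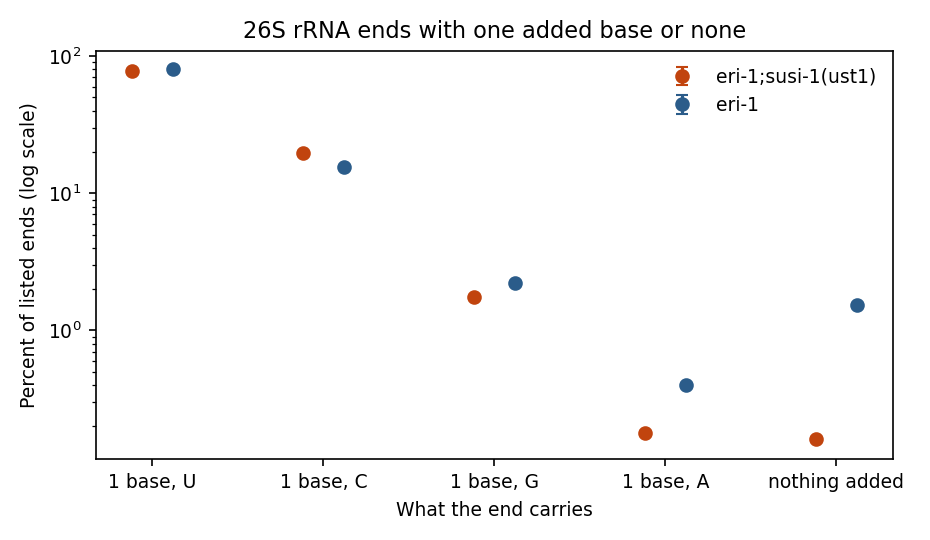
Percent of listed 26S rRNA ends (log scale) carrying 1 added base of each kind, or nothing, in eri-1;susi-1(ust1) and eri-1, with 1 library each. Bars are exact 95% intervals of counting error and are smaller than the points. Ends with nothing added lie at 0.162% in the double mutant and 1.53% in eri-1, the widest gap of the plot on its log scale.

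Tails of 2 or more bases numbered 4583 reads, or 1205 CPM, in the double mutant and 4596, or 1179 CPM, in eri-1. Their ratio was 1.02 (0.981 to 1.07), so no difference was detectable at this depth. Their mean length was 2.54 ± 1.19 bases in the double mutant and 2.53 ± 1.24 in eri-1 (SD over reads). Tails of 3 or more bases were at 316 CPM in the double mutant and 280 in eri-1, a ratio of 1.13 (1.04 to 1.23).

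The excess did not extend evenly over lengths. Tails of 3 bases had 587 reads in the double mutant and 461 in eri-1 (ratio 1.31, 1.15 to 1.48), and tails of 5 bases 130 in the double mutant and 95 in eri-1 (1.40, 1.07 to 1.85). Tails of 4 bases, with 319 reads in the double mutant and 345 in eri-1, had a ratio of 0.948 (0.811 to 1.11). Tails of 8 bases were scarcer in the double mutant, with 27 reads against 56 in eri-1 (0.494, 0.300 to 0.796). No listed tail of either library was longer than 9 bases, and no source used here says whether the authors kept longer ones.

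DIS3L2 enzymes are known to recognise tails of U alone. Lengths here count every base beyond the authors' end, whether or not the first U is encoded. The pair of uridines UU, by far the commonest, had 1372 reads in the double mutant, 361 CPM, against 1779 reads in eri-1, 456 CPM. The ratio was 0.791 (0.736 to 0.849), so UU was scarcer in the double mutant.

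Longer runs went the other way. The run UUU had 173 reads in the double mutant, 45.5 CPM, against 96 reads in eri-1, 24.6 CPM (ratio 1.85, 1.43 to 2.40). The run UUUU had 52 reads in the double mutant, 13.7 CPM, against 23 in eri-1, 5.90 CPM (2.32, 1.39 to 3.97). Beyond that length reads were few. UUUUU had 8 reads in the double mutant and 2 in eri-1, with a ratio of 4.10 whose interval (0.818 to 39.6) included 1. UUUUUU had 5 reads in the double mutant and 1 in eri-1 (5.13, 0.573 to 242), and no longer run of U alone was listed for the pair.

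Summed over lengths, runs of 3 or more U had 238 reads in the double mutant and 122 in eri-1, a ratio of 2.00 (1.60 to 2.51). Runs of 4 or more had 65 reads in the double mutant and 26 in eri-1 (2.56, 1.60 to 4.21), and runs of 5 or more had 13 in the double mutant and 3 in eri-1 (4.44, 1.22 to 24.3). All U-only tails of 2 or more bases together were nonetheless scarcer in the double mutant, with 1610 reads against 1901 in eri-1 (0.868, 0.812 to 0.928). UU held 1372 of these reads in the double mutant and 1779 in eri-1.

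Within U-only tails, longer ones took a larger share in the double mutant. Of those with 2 or more U, 14.8% (13.1 to 16.6) had 3 or more in the double mutant, against 6.42% (5.36 to 7.61) in eri-1. Their mean length was 2.20 ± 0.540 bases in the double mutant and 2.08 ± 0.332 in eri-1 (SD over reads). Of those with 3 or more U, 27.3% (21.8 to 33.4) had 4 or more in the double mutant and 21.3% (14.4 to 29.6) in eri-1, and these intervals overlap.

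**Figure D2:**
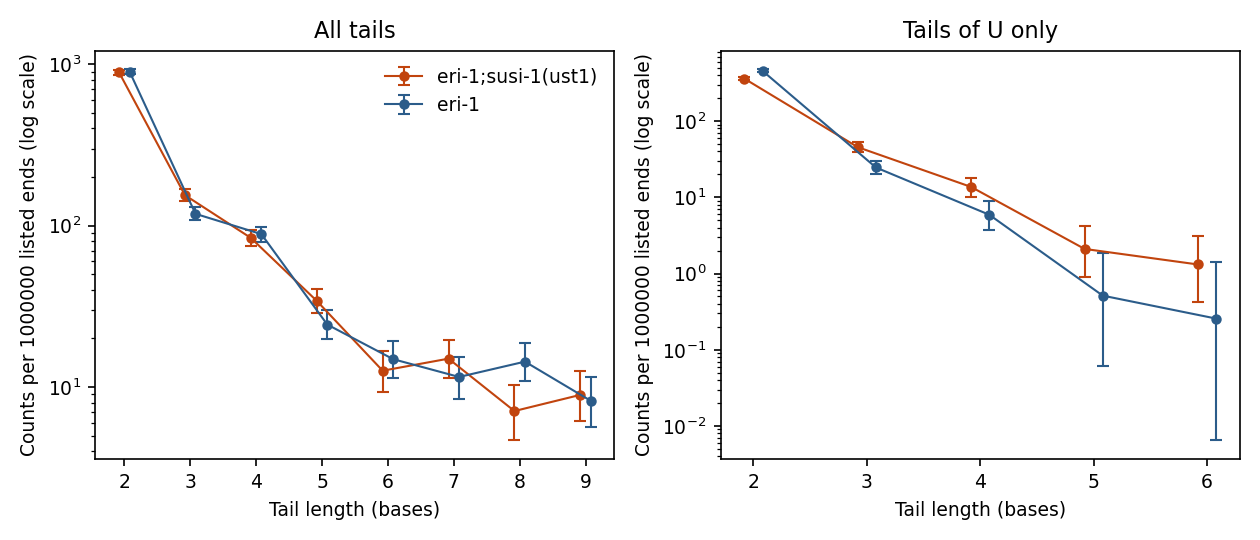
Counts per 1000000 listed ends (CPM, log scale) by tail length in bases, for all tails of 2 to 9 bases (left) and for tails of U only of 2 to 6 bases (right), in eri-1;susi-1(ust1) and eri-1, 1 library each. Bars are exact 95% intervals of counting error. On the right, the double mutant lies below eri-1 at 2 bases (361 CPM against 456 in eri-1) and above it at 3 (45.5 against 24.6 in eri-1) and at 4 (13.7 against 5.90 in eri-1).

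Leading runs of U were also counted whatever bases followed. Tails of 2 or more bases starting with 3 or more U had 372 reads in the double mutant and 237 in eri-1 (ratio 1.61, 1.36 to 1.90). Those starting with 4 or more had 78 reads in the double mutant and 52 in eri-1 (1.54, 1.07 to 2.23). Those starting with 2 or more, a set dominated by UU, had 2122 reads in the double mutant and 2277 in eri-1 (0.955, 0.900 to 1.01).

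Tails that mix U with A had 898 reads, or 236 CPM, in the double mutant and 653, or 168 CPM, in eri-1 (ratio 1.41, 1.27 to 1.56). Their order was strongly one-sided in both libraries. U came first in 99.3% of these reads in the double mutant and in 98.8% in eri-1. All U stood before all A in 91.2% (89.2 to 93.0) in the double mutant and in 82.7% (79.6 to 85.5) in eri-1. The ratio of these shares was 1.10 (0.988 to 1.23), and without Ua it was 1.21 (1.02 to 1.43). The interval of this ratio treats reads as rare counts and is too wide for shares this large. That it includes 1 is thus no sign of equal shares, and the separate intervals of the shares do not overlap. The reverse order, all A before all U, had 1 read in the double mutant and 8 in eri-1.

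The U-then-A tails carried the excess. They had 819 reads in the double mutant, 215 CPM, against 540 in eri-1, 139 CPM (ratio 1.55, 1.39 to 1.74). Tails of U and A in 3 or more runs had 78 reads in the double mutant and 105 in eri-1, a ratio of 0.761 whose interval (0.561 to 1.03) included 1. Of single sequences, Ua, the commonest mixed tail, had 475 reads in the double mutant and 307 in eri-1 (1.59, 1.37 to 1.84).

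Of the U-then-A tails with a pair of U, UUa was the commonest. It had 108 reads in the double mutant, 28.4 CPM, against 38 in eri-1, 9.75 CPM (ratio 2.91, 2.00 to 4.34). The tail UUaaa had 23 reads in the double mutant and 6 in eri-1 (3.93, 1.56 to 11.8). Their neighbour UUaa, with 45 reads in the double mutant and 33 in eri-1, had a ratio of 1.40 (0.872 to 2.26), not distinguishable from 1.

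By the length of the U run, U-then-A tails with 1 U had a ratio of 1.47 (1.29 to 1.67), from 591 reads in the double mutant and 412 in eri-1. Those with 2 U had a ratio of 2.29 (1.75 to 3.02), from 179 reads in the double mutant and 80 in eri-1. Those with 3 or more U had 49 reads in the double mutant and 48 in eri-1 (1.05, 0.688 to 1.59), so for these no difference was detectable at this depth. The tail UUUa by itself had 39 reads in the double mutant and 42 in eri-1 (0.952, 0.599 to 1.51).

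By the length of the A run, tails ending in 1 A had a ratio of 1.65 (1.45 to 1.88) and those ending in 2 A 1.54 (1.18 to 2.03). Tails ending in 3 A had 42 reads in the double mutant and 48 in eri-1 (0.897, 0.578 to 1.39), and those ending in 4 or more had 16 in the double mutant and 14 in eri-1 (1.17, 0.536 to 2.59). Single sequences in this range went both ways. Uaaaa had 11 reads in the double mutant and 2 in eri-1 (5.64, 1.23 to 52.3), while Uaaa had 18 in the double mutant and 38 in eri-1 (0.486, 0.261 to 0.872). These last 2 tails were chosen after their values were seen. Tails of A alone with 2 or more bases were rare, with 7 reads in the double mutant and 3 in eri-1.

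Tails with G or C made up a large part of tails of 2 or more bases, 45.1% (43.7 to 46.6) in the double mutant and 44.4% (42.9 to 45.8) in eri-1. Their ratio was 1.04 (0.977 to 1.11), not distinguishable from 1. Those with G but no C had 1400 reads in the double mutant and 1434 in eri-1 (1.00, 0.929 to 1.08). Those with C but no G were slightly more frequent in the double mutant, with 559 reads against 494 in eri-1 (1.16, 1.03 to 1.31). Those holding both had 109 reads in the double mutant and 111 in eri-1.

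A run of U closed by a single C had 413 reads in the double mutant and 290 in eri-1 (ratio 1.46, 1.25 to 1.70). Of these, UUc had 45 reads in the double mutant and 17 in eri-1 (2.71, 1.52 to 5.06). A run of U closed by a single G had 1114 reads in the double mutant and 1030 in eri-1 (1.11, 1.02 to 1.21). With 3 or more bases, tails with G or C had a ratio below 1, at 538 reads in the double mutant against 626 in eri-1 (0.881, 0.784 to 0.990), whereas tails of U and A alone were above it, at 664 reads in the double mutant against 466 in eri-1 (1.46, 1.30 to 1.65).

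**Figure D3:**
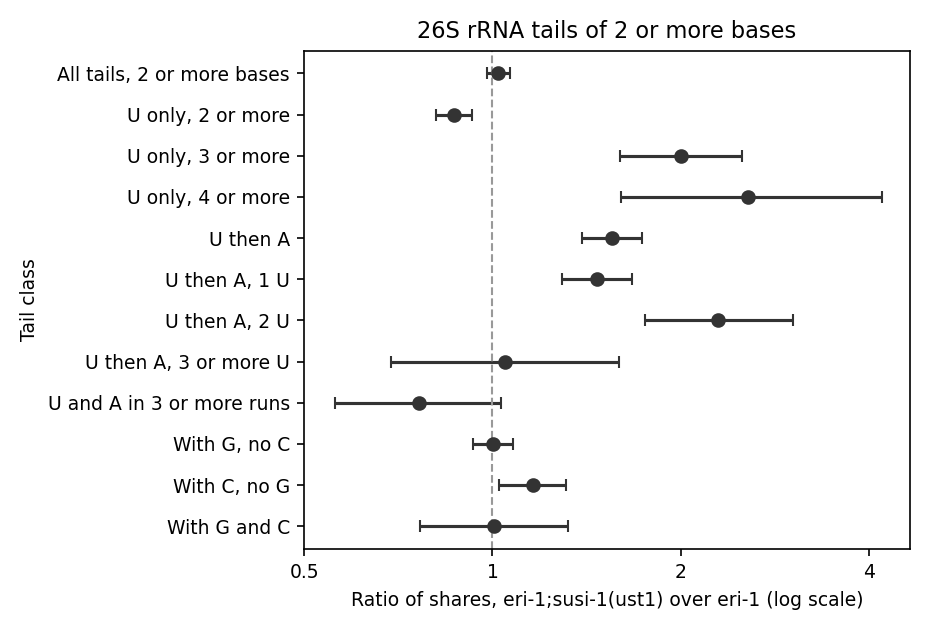
Ratio of the share of listed ends, eri-1;susi-1(ust1) over eri-1 (log scale), for classes of tails of 2 or more bases, with exact 95% intervals of counting error and a dashed line at 1. U-only tails of 3 or more (2.00) and U-then-A tails with 2 U (2.29) lie above 1, all U-only tails of 2 or more (0.868) lie below, and tails with G but no C lie at 1.00.

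The last base of a tail differed as well. Among tails of 2 or more bases the last base was A in 20.8% (19.6 to 22.0) in the double mutant and 14.0% (13.0 to 15.0) in eri-1. It was U in 41.0% (39.6 to 42.5) in the double mutant and 51.2% (49.7 to 52.7) in eri-1. It was C in 11.9% in the double mutant and 9.27% in eri-1, and G in 26.3% in the double mutant and 25.6% in eri-1. The first base was U in 97.8% in the double mutant and 96.6% in eri-1.

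Over all added bases, single ones included, U made up 78.4% in the double mutant and 81.4% in eri-1, a value set by the single bases U and C. In tails of 2 or more bases U made up 64.5% of bases (63.6 to 65.3) in the double mutant and 66.4% (65.5 to 67.2) in eri-1. In tails of 3 or more the order turned, at 57.0% (55.6 to 58.4) in the double mutant and 53.7% (52.2 to 55.1) in eri-1. Bases of a tail are not independent, so these intervals are too narrow. The share of G in the same tails of 3 or more bases was 10.4% in the double mutant and 13.8% in eri-1.

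The libraries listed 174 distinct tails in the double mutant and 181 in eri-1, of which 82 were shared, 47.1% of the list of the double mutant and 45.3% of that of eri-1. Tails found in a single library of the pair were minor, with at most 10 reads in the double mutant and 20 in eri-1. Distinct tails with 10 or more reads in the pair numbered 54. Of these, 11 (20.4%) were at least 2-fold more frequent in the double mutant with an interval above 1, and 9 (16.7%) were at least 2-fold less frequent with an interval below 1. With counts as deposited, not divided by 4, there were 43 higher and 52 lower. The minimum of 10 then applied to undivided counts and let in more tails, so these are not parts of the 54. The fold rule is a rule of size on reads of 2 libraries and not a test of the genotypes.

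The 11 higher tails were spread over classes. Of 5 U-only tails, 1 was higher, UUUU, and 0 were lower. Of 8 U-then-A tails, 3 were higher and 1 lower. Of 35 tails with G or C, 7 were higher and 6 lower, so both directions occurred there about equally. Among them UUUgc had 11 reads in the double mutant and 1 in eri-1, a ratio of 11.3 (1.64 to 485). Its neighbour UUgc, 1 U shorter, leaned the same way, with 10 reads in the double mutant and 0 in eri-1. Tails of 3 or more U closed by GC or GU, a set that includes UUUgc but not UUgc, showed no such excess as a whole. They had 26 reads in the double mutant and 23 in eri-1 (1.16, 0.636 to 2.13).

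A few sequences had no reads, or very few, in 1 library of the pair. The tail UUgc had 10 reads in the double mutant and 0 in eri-1, 3.42-fold higher with eri-1 set at a floor of 3 reads. It also had 2 reads in susi-1(ust1) and 6 in N2, so it was not particular to the double mutant. The exact interval of its ratio, which also covers the counting error of the 10 reads, starts lower, at 2.30. The tail UUca had 0 reads in the double mutant and 20 in eri-1, 6.50-fold lower with the double mutant set at that floor. The exact interval of UUca reaches up to a ratio of 0.208, a smaller difference. Both were named as extremes and reached the minimum of 10 reads through the library where they are high, so their values are a description. The tail UgaU had 17 reads in the double mutant and 2 in eri-1 (8.71, 2.07 to 77.7). In the other background it had 15 reads in susi-1(ust1) and 18 in N2, a ratio of 0.864 (0.406 to 1.82).

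In the other direction, UgUg had 2 reads in the double mutant and 21 in eri-1 (ratio 0.0976, 0.0111 to 0.399), and UUag had 3 in the double mutant and 22 in eri-1 (0.140, 0.0268 to 0.465). Uag had 5 reads in the double mutant and 22 in eri-1 (0.233, 0.0689 to 0.630), and UcU had 24 in the double mutant and 58 in eri-1 (0.424, 0.252 to 0.693). Copies made by PCR were not marked, so a rare tail's reads may stem from few molecules, which was not tested. No tail of either library contained the first 4 bases of any of the 3 ligated linkers, whereas 41 reads did in susi-1(ust1), 47 in N2 and 6 in eri-1 after cold shock.

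The other 3 libraries of 26S rRNA ends are set beside the pair. They differ from it in genotype or treatment, so their spread is not that of repeat libraries. Counts of susi-1(ust1) and N2 were not all multiples of 4 and were left undivided. They are susi-1(ust1) and N2, whose labels name no transgene and whose tables stop at 6 bases, and eri-1(mg366) with the transgene after 12 h at 4 °C and 2 h of recovery at 20 °C. Over tails of up to 6 bases, U-only tails of 3 or more were at 62.6 CPM in the double mutant and 31.3 in eri-1. They were at 55.3 in susi-1(ust1) and 26.8 in N2, a ratio of 2.06 (1.79 to 2.38), beside 2.00 (1.60 to 2.51) for the pair in the eri-1 background. They were highest after cold shock in eri-1, at 159 CPM.

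Other classes ran parallel in the 2 backgrounds in some cases and not in others. Tails of 2 to 6 bases had a ratio of 1.03 (0.984 to 1.07) for the double mutant over eri-1 and of 1.48 (1.44 to 1.52) for susi-1(ust1) over N2. U-then-A tails of up to 6 bases had ratios of 1.55 (1.39 to 1.74) for the double mutant over eri-1 and 1.73 (1.65 to 1.83) for susi-1(ust1) over N2, and these intervals overlap. The tail UUa had a ratio of 2.91 (2.00 to 4.34) in the eri-1 background and 2.72 (2.39 to 3.11) over N2, again overlapping. UUUa had 0.952 (0.599 to 1.51) in the eri-1 background and 4.05 (2.97 to 5.60) over N2. The difference between backgrounds was not tested, since each group has 1 library.

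The eri-1 library stood apart from the other 4 in ends with nothing added. These were at 1620 CPM in the double mutant, against 15307 in eri-1, 4343 in susi-1(ust1), 3175 in N2 and 3167 in eri-1 after cold shock. Of the 5 libraries eri-1 thus had the highest value and the double mutant the lowest. A single A, at 3973 CPM, was likewise most frequent in eri-1. UU did not set eri-1 apart, at 361 CPM in the double mutant and 456 in eri-1, with 429 in susi-1(ust1), 326 in N2 and 540 in eri-1 after cold shock.

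**Figure D4:**
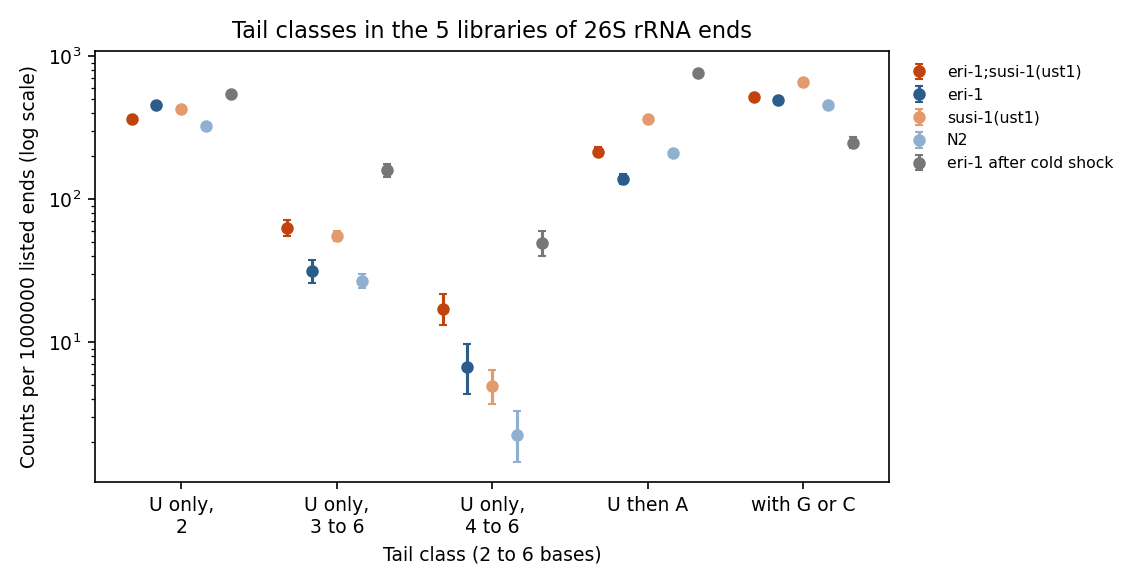
Counts per 1000000 listed ends (CPM, log scale) for 5 classes of tails of 2 to 6 bases in the 5 libraries of 26S rRNA ends, 1 library each, with exact 95% intervals of counting error. U-only tails of 3 or more are at 62.6 in the double mutant and 31.3 in eri-1, at 55.3 in susi-1(ust1) and 26.8 in N2, and at 159 in eri-1 after cold shock.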

How the data were processed

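Per the labels' protocols, a linker was ligated to the 3′ ends of total embryo RNA, and reverse-transcribed products were amplified with a primer in 26S rRNA. The authors deposited raw read counts per added sequence, per the file headers, with Bowtie2 named in the submitters' processing notes. Its version and role, and how added sequences were told from rRNA, are not given in the sources used here. In each table the total equals the sum of its entries. Counts that were all multiples of 4 were divided by 4. T was written as U. Tails were sorted by length, base content and order of bases. Shares and ratios have Clopper-Pearson 95% intervals, conditional on the pair's reads for ratios (Python 3.11.15, SciPy 1.17.1), tested on simulated data. The simulated counts were independent draws without PCR copies. Changes were planted in common tails alone and were larger than 2-fold, so recovery of 2-fold changes in rarer tails was not checked. Distinct tails with 10 or more reads in the pair were called at 2-fold with an interval that left out 1. Tails named are the 5 commonest of each library, the 5 commonest mixed ones, every U-only or A-only tail with 10 reads, and, ranked by whichever interval bound lies nearer to 1, 6 at either extreme, plus sequences said to be chosen later. UUUUUU fell short of that minimum and was added to complete the ladder of U. Classes such as leading runs of U and the closing C or G were also set after the values were seen. Members and lists were chosen with earlier results of these data known. Gene positions come from Ensembl release 115. Small RNA tables were not used here.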

Additional observations from a re-analysis of the deposited data

Results flagged for a closer look

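Several measures went one way in eri-1;susi-1(ust1) over eri-1 and the other way in susi-1(ust1) over N2, with both counting intervals leaving out 1. With 1 library a group, the difference between the backgrounds was not tested. Ends with nothing added had a ratio of 0.106 in the eri-1 background and 1.37 over N2, and ends with any added sequence (up to 6 bases) 1.01 in the eri-1 background and 0.999 over N2. A single U had a ratio of 0.976 in the eri-1 background and 1.02 over N2, a single C 1.25 in the eri-1 background and 0.916 over N2. A single G had 0.788 in the eri-1 background and 1.17 over N2, and a single A 0.452 in the eri-1 background and 1.32 over N2. U-only tails of 2 or more bases had 0.868 in the eri-1 background and 1.37 over N2. The pair of uridines UU alone had 0.791 in the eri-1 background and 1.32 over N2, and the tail UUag 0.140 in the eri-1 background and 2.96 over N2. In eri-1, the control of the first pair, ends with nothing added were at 15307 CPM, against 3175 in N2, the control of the second. What share of these contrasts comes from that single library was not tested.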

How the results depend on the processing

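No paired analysis was possible because each group has 1 library, and for the same reason no library could be left out. With counts as deposited, not divided by 4, the ratios and differences were as before and the calls went from 11 higher and 9 lower tails to 43 and 52. With 50 or more reads there were 3 higher and 3 lower, and without a minimum 16 higher and 19 lower of 273 distinct tails. Each of these settings made a different number of tails eligible, so the counts of calls are not shares of one set. All ratios and differences here set the double mutant over, or minus, eri-1. The ratio of ends with any added sequence, at 1.01, was 0.974 for tails of U and A alone (reversed), 1.18 without the commonest tail, a single U, 1.02 for tails of 2 or more bases and 1.13 for 3 or more. The U-only ratio, at 0.976, was 2.00 for 3 or more bases (reversed), and was 0.868 for 2 or more, 0.868 without the single U and 0.963 over tailed ends. The share of U among added bases differed by -3.03 percentage points, by 3.37 in tails of 3 or more bases (reversed), -1.89 in tails of 2 or more, -0.164 without the single U and -1.68 with each distinct tail counted once. Mean tail length differed by 2.7e-05 bases, by 0.010 in tails of 2 or more, by -0.00125 without the single U, by 0.109 with each distinct tail counted once and by 0.115 for that count in tails of 2 or more. The limits of 3 or more bases for the share of ends and of U, and the last count of length, were chosen after seeing the data. These limits keep different tails, and further causes were not tested. Depth limits U runs of 5 and more, with 13 reads in the double mutant and 3 in eri-1.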

Other observations

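Of 57 distinct tails of 7 or more bases in the double mutant and 53 in eri-1, 5 were shared, 8.77% of the list of the double mutant and 9.43% of that of eri-1. Over tails of every length the shares were 47.1% of the list of the double mutant and 45.3% of that of eri-1. Of 65 distinct tails of 2 to 4 bases in the double mutant and 68 in eri-1, 55 were shared. Tails of 7 or more bases had 118 reads in the double mutant and 133 in eri-1. Those of 2 to 4 bases had 4287 in the double mutant and 4310 in eri-1. With so few reads for each long sequence, missing a long tail in either library is no sign that it was absent. The long tails had a ratio of 0.909 (0.704 to 1.17). The most read of those shared was UUcUcaac, with 4 reads in the double mutant and 11 in eri-1, a sequence named after its values were seen.

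Many tails of 5 or more bases came as pairs that were alike up to a last base of C or U. There were 14 such pairs with 79 reads among 47 distinct tails ending in C or U in the double mutant, and 18 pairs with 106 reads among 67 in eri-1. Within the pairs, C closed 40 reads in the double mutant and 40 in eri-1. C and U were also the 2 commonest single bases at the 26S rRNA end in both libraries. What links these values was not tested.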
